A study of Mus musculus with 2040 samples.

Results

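The 8 genes described here are used to tell states of oligodendrocytes apart: Ptgds, Il33, Apod, Klk6, Enpp6, Serpinb1a, Car2 and Anln. They were chosen by name, with earlier results of these data known, as 8 of the 32245 gene columns of a single-cell expression table. They were followed through 962 oligodendrocyte-like cells of the visual cortex and astrocyte-like cells of 3 tissues, out of 2040 cells in all. The mice, 47 in number and all C57Bl/6J, had each received 1 of 30 viral vectors (enhancer-AAVs), in which a named enhancer or promoter drives the fluorescent protein SYFP2, and single SYFP2-positive cells were sorted by flow cytometry and sequenced by the SMART-seq method, which reads polyA RNA of 1 cell at a time. The dissections were VISp, a part of the cortex that processes vision (41 mice, 27 vectors, 1785 cells), MB/HB, midbrain and hindbrain (4 mice, vectors MGT_E160m and eHGT_381h), and CBX, cerebellar cortex (2 mice, vector eHGT_375m, 81 cells). Every mouse carried a vector, so no uninjected animal was compared, and which cells were sampled depended on the vector and the sort gate; age and sex of the mice are not given in the sources used here.

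Oligodendrocytes wrap axons in myelin, and after they leave the precursor stage they pass through newly formed, myelin-forming and mature states that differ in gene expression. Enpp6, a choline-specific phosphodiesterase, is widely used as a marker of newly forming oligodendrocytes, while Klk6, a secreted serine protease of the kallikrein family, marks a mature state. Ptgds, the synthase that makes prostaglandin D2, and Il33, a nuclear cytokine that acts as an alarm signal when cells are damaged, are known in mature oligodendrocytes, and Il33 also in astrocytes. Apod is a lipid-binding lipocalin, Serpinb1a an intracellular inhibitor of serine proteases, Car2 the cytosolic carbonic anhydrase of oligodendrocytes, and Anln an actin- and septin-binding scaffold of cell division that is also a component of myelin.

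All 8 are protein-coding genes, placed here on build GRCm38 (mm10) by the GENCODE vM21 annotation. Ptgds lies at chr2:25466709-25470046, Car2 at chr3:14886273-14900770, Klk6 at chr7:43824499-43832030, Enpp6 at chr8:46986887-47096762, Anln at chr9:22332012-22389188, Serpinb1a at chr13:32842092-32851185, Apod at chr16:31296192-31314808 and Il33 at chr19:29925114-29960718. Sequences before the transcription starts are shown for 5 genes. Of these, Klk6, Enpp6 and Apod moved together between cells, and Ptgds and Il33 moved against Klk6 and Enpp6. Anln also moved with Klk6, Enpp6 and Apod, but its sequence is not printed. RefSeq (build GRCm38.p6) gave sequence before the start for 6 of the 8 genes. Each stretch begins 250 bases before a RefSeq start, runs 5′ to 3′ on the strand of the gene and stops before the first base that an annotated exon covers. Capitals mark matches to ACAAAG or ACAATG, core letters bound by SOX factors such as SOX10, the transcription factor of the oligodendrocyte lineage, searched on both strands.

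Klk6: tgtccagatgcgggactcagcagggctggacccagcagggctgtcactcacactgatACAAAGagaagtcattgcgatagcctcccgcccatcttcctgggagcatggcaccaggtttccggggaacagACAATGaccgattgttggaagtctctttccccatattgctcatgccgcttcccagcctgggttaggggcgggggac
Enpp6: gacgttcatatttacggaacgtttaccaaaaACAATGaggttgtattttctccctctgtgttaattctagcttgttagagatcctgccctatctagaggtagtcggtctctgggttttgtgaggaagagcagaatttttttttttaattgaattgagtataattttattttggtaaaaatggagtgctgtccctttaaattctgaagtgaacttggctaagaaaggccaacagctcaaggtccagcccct
Apod: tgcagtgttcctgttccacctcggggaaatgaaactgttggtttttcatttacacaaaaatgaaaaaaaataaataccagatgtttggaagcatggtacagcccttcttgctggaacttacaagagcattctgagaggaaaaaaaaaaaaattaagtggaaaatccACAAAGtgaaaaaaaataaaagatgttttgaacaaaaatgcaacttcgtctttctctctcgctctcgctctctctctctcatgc
Il33: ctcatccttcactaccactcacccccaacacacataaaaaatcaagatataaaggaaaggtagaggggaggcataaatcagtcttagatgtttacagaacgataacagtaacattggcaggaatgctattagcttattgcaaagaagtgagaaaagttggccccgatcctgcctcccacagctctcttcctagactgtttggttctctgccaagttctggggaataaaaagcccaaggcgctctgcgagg
Ptgds: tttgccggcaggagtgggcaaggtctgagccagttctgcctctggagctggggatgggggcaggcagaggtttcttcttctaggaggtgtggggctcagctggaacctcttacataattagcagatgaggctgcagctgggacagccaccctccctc

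These stretches lie at chr7:43824294-43824498 for Klk6 (plus strand), chr8:46986637-46986886 for Enpp6 (plus strand), chr16:31314809-31315058 for Apod (minus strand), chr19:29924863-29925112 for Il33 (plus strand) and chr2:25469843-25469999 for Ptgds (minus strand). The last lies inside the longer Ptgds gene model, between exons. Klk6 held 2 matches, Enpp6 held 1 and Apod held 1, of which that of Apod lay nearest to its start, 84 bases before it. None was found in the 250 bases before either RefSeq start of Il33, before the start of Ptgds, before the second start of Klk6 or before Anln. Since Anln moved with Klk6, Enpp6 and Apod, not every gene of that group held a match. Of all 32851 RefSeq windows of 250 bases, 25.2% held at least 1 match and 4.12% held 2 or more, so a match is common and describes only these letters.

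Cell classes were rebuilt by clustering the cells without the 8 genes and naming clusters from marker genes, so a class is written as oligodendrocyte-like or astrocyte-like. All 12 oligodendrocyte markers (among them Mbp, Mog and Mobp) were at 10 CPM (counts per 1000000 reads of the cell) or more in each of the 22 VISp mice with at least 10 oligodendrocyte-like cells, and their summed level was 68592 to 92493 CPM. The 12 astrocyte markers summed to 220 to 1293 CPM in the same cells, against 29739 to 38823 CPM in VISp astrocyte-like cells. Depth was 57873 to 1455022 reads per cell with a median of 434102, and 0 of the 2040 cells had a profile identical to that of another cell. The 22 mice hold 949 of the 962 cells, 18 to 63 each, and the mouse is the replicate in every test. Shares of the 962 cells pool cells of 30 mice. Their exact intervals cover counting error only and not the spread between mice. P-values over mice cover the spread between these animals.

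In VISp oligodendrocyte-like cells the 8 genes ranged from present in every cell to absent in most. Apod and Car2 were at 10 CPM or more in 962 of 962 cells, Ptgds in 931 (96.8%, exact 95% interval 95.5 to 97.8%) and Il33 in 928 (96.5%, 95.1 to 97.5%). Klk6 was there in 98 cells (10.2%, 8.35 to 12.3%), Enpp6 in 23.6% of cells (20.9 to 26.4%), Serpinb1a in 71.9% (68.98 to 74.8%) and Anln in 78.8% (76.1 to 81.3%). The same share in VISp astrocyte-like cells, which should lack most of these genes, was 0.135% for Klk6, 0.541% for Enpp6, 6.90% for Serpinb1a and 2.30% for Anln, at a median depth of 431572 reads against 442264 in the oligodendrocyte-like cells. All 4 shares were therefore above what astrocyte-like cells held.

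**Figure D1:**
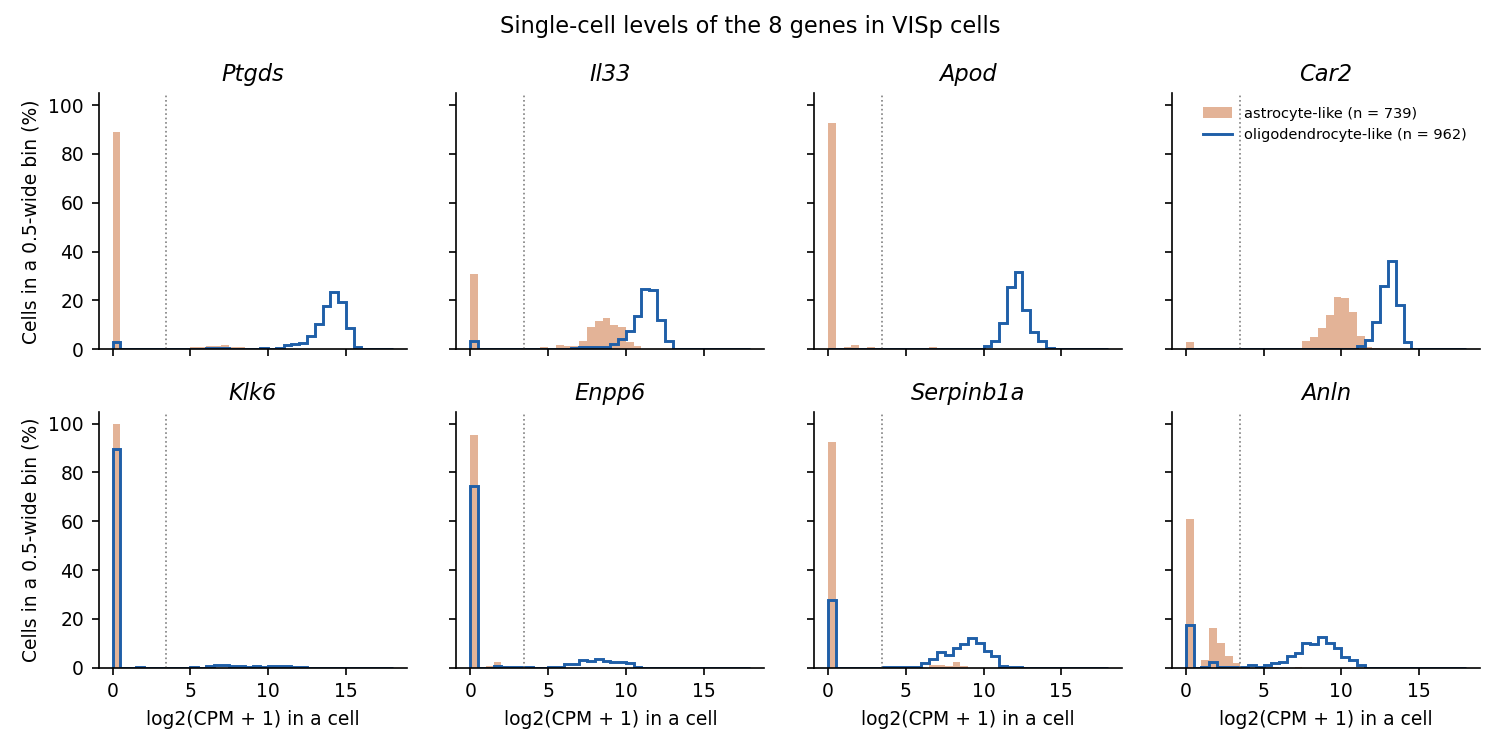
Distribution of each gene over single VISp cells. The x axis is log2(CPM + 1) in a cell, the y axis the percent of cells in each 0.5-wide bin, blue lines are the 962 oligodendrocyte-like cells, orange areas the 739 astrocyte-like cells, and the dotted line marks 10 CPM. Klk6 and Enpp6 are off in most oligodendrocyte-like cells, Serpinb1a and Anln are off in a minority, and Apod and Car2 are on in all of them.

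For Klk6 the split was nearly complete, since the 96 cells with the highest values carried 99.9% of all its CPM, and its highest value in a cell was 4949 CPM. Enpp6 was less concentrated, with 75.8% of its CPM in its own 96 highest cells and a maximum of 2384 CPM. Apod, by contrast, ran from 2559 CPM at the 10th percentile of cells to 8769 CPM at the 90th, with a median of 4475 CPM. Ptgds had a median of 16862 CPM with 3523 CPM at the 10th percentile, and Il33 a median of 2550 CPM with 677.7 CPM there, so both had a tail of cells far below the bulk. Levels are not compared between genes, because CPM is not corrected for transcript length.

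Enpp6 was found more often in cells with Klk6 than in cells without it. Both were at 10 CPM or more in 75 cells, from 16 mice and 12 vectors, so that 76.5% of the cells with Klk6 held Enpp6 against 17.6% of the cells without Klk6. Read the other way, 33.04% of the cells with Enpp6 held Klk6 against 3.13% of those without. The share of Enpp6 was higher among the cells with Klk6 in 16 of 20 mice and lower in 3. Counting only values of 100 CPM or more gave 78.8% against 15.3%, and thinning every cell to 50000 reads gave 76.3% against 17.9%.

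The cells with both genes were the ones with little Ptgds and Il33. Ptgds had a median of 89.2 CPM in the 75 cells with both (quartiles 0 and 2901 CPM), 10549 CPM in the cells with Enpp6 alone (15.8% of all), 18410 CPM in the 23 with Klk6 alone and 19788 CPM in those with neither (74.01% of all). Il33 followed with medians of 121.5, 2491, 2657 and 2717 CPM in the same order. Cells with Klk6 alone thus resembled those with neither gene, and their own Klk6 was low, at a median of 124.9 CPM against 550.7 CPM in the cells with both.

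Apod, Anln and Serpinb1a ran the opposite way. Apod had a median of 10728 CPM in the cells with both genes, 5598 CPM with Enpp6 alone, 5034 CPM with Klk6 alone and 4084 CPM with neither. Anln had 1307, 467.6, 260.2 and 190 CPM in that order, and Serpinb1a 1040, 540.4, 316.5 and 190.1 CPM. Car2 stood apart from all of these, with 7736, 8407, 8712 and 8895 CPM. In the 16 mice that held both kinds of cell, the mouse's median in the cells with both genes, against that in the cells with neither, was lower for Ptgds and Il33 in 16 of 16 mice and higher for Apod, Anln and Serpinb1a in 16 of 16, while Car2 was lower in 13 and higher in 3. On the log2(CPM + 1) scale the median of these within-mouse differences was -5.35 for Ptgds, -3.14 for Il33, 2.75 for Anln, 2.05 for Serpinb1a, 1.18 for Apod and -0.16 for Car2.

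**Figure D2:**
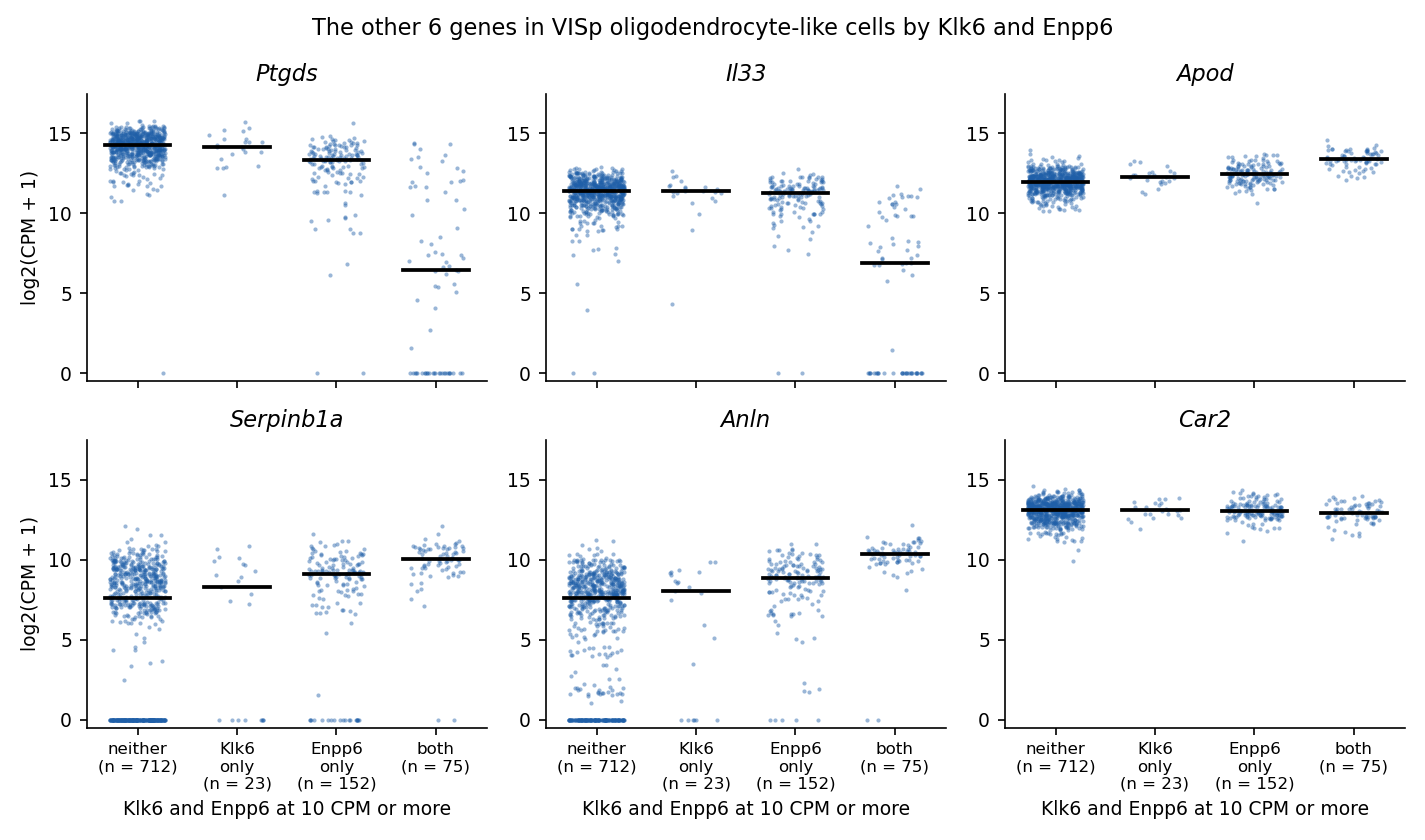
Levels of the other 6 genes in single VISp oligodendrocyte-like cells, as log2(CPM + 1), by whether Klk6 and Enpp6 were at 10 CPM or more. Points are cells, black bars are medians over cells and n is the number of cells; Ptgds and Il33 are low or 0 in many of the 75 cells with both genes, where Apod, Serpinb1a and Anln are high and Car2 is close to its level elsewhere.

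The few cells without Ptgds or without Il33 were mostly cells with both Klk6 and Enpp6, 39 of 46. The counts that follow therefore read the same relation from the other side and are no separate evidence. Of the 31 cells with Ptgds under 10 CPM, from 12 mice and 9 vectors, 28 (90.3%) held Klk6 and 30 (96.8%) held Enpp6, against 7.52% and 21.2% of the cells with Ptgds. Of the 34 cells with Il33 under 10 CPM, 30 (88.2%) held Klk6 and 32 (94.1%) held Enpp6. Neither Ptgds nor Il33 reached 10 CPM in 19 cells, and all 19 held both Klk6 and Enpp6. These 19 cells kept at least 11 of the 12 oligodendrocyte markers at 10 CPM or more, and their marker genes summed to a median of 89216 CPM against 84154 CPM in the cells with both Ptgds and Il33. Exclusion was thus one of degree, because 36 cells held all 4 of Ptgds, Il33, Klk6 and Enpp6.

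Clusters made without the 8 genes separated much of this group. Genes of the oligodendrocyte state lists given below, chosen with earlier results of these data known, were not kept out of the clustering. Of the 75 cells with Klk6 and Enpp6, 53 (70.7%) fell into 1 of the 4 clusters of oligodendrocyte-like cells, which held 63 VISp cells of 14 mice and in which 84.1% of cells had both genes. The share was 1.36 to 4.55% in the other 3 clusters. Slco3a1, Klhl4 and Slc25a27 were among the leading genes of that cluster, ranked against all other cells, astrocyte-like cells and neurons included. Trf was among them too, but also among the leading genes of the other 3 clusters. Cells with both genes had a median of 5432 genes detected, against 4541 with Enpp6 alone, 4422 with Klk6 alone and 4330 with neither, at median depths of 472842, 423302, 449185 and 441670 reads. Of the cells with both, 40% held 3 or more markers of another cell type at 10 CPM or more, against 45.6% of the cells with neither.

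Rank correlations within each mouse put numbers on all 28 pairs. Spearman's rho over the oligodendrocyte-like cells of a mouse was taken for the 22 mice, and the median over mice is given as a description with no test; cells of 1 mouse share an animal and a vector, and come from 1 or 2 plates. The median was at least 0.2 for 11 pairs, at most -0.2 for 7 and in between for 10. Over the same 8 genes paired with 2512 other genes found in at least 10% of the cells, 0.727% of pairs were at least 0.2 and 0.403% at most -0.2. The 8 genes were chosen with earlier results of these data known, while most of the 2512 were drawn at random. The shares are therefore set side by side as a description only.

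Klk6 with Enpp6 had the highest median, 0.51, with values from -0.21 to 0.74 over 19 mice and 16 of 19 positive. Enpp6 was positively related to Apod (0.44) and to Anln (0.42) in 20 of 20 mice each, and to Serpinb1a (0.33) in 18 of 20. Klk6 was related to Apod at 0.38, to Anln at 0.32 and to Serpinb1a at 0.30. Apod with Anln gave 0.35, Apod with Serpinb1a 0.34 and Serpinb1a with Anln 0.23. These 5 genes were thus positively related in each of their 10 pairs.

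Ptgds with Il33 gave 0.28, positive in 19 of 22 mice. Against the other group, Ptgds was negatively related to Enpp6 (-0.48, negative in 20 of 20 mice), Klk6 (-0.39, 16 of 20), Anln (-0.32, 22 of 22) and Serpinb1a (-0.26, 21 of 22), while its relation to Apod was -0.18 and stayed short of the 0.2 line. Il33 was negatively related to Klk6 (-0.29, 19 of 20), Anln (-0.22, 20 of 22) and Enpp6 (-0.20, 19 of 20), with -0.19 for Apod and -0.10 for Serpinb1a. Car2 gave values between -0.09 and 0.11 with each of the other 7 genes.

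**Figure D3:**
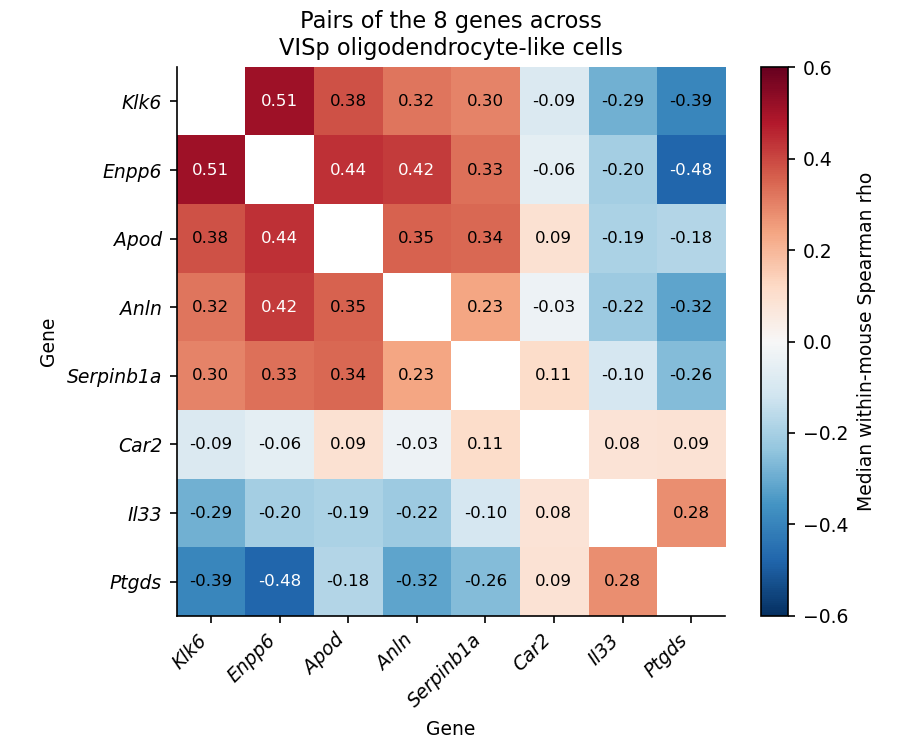
Median over mice of the within-mouse Spearman rho for each pair of genes across VISp oligodendrocyte-like cells (red positive, blue negative, colour scale -0.6 to 0.6). Klk6, Enpp6, Apod, Anln and Serpinb1a form a block of positive values, Ptgds and Il33 are positive with each other and negative with that block, and Car2 is near 0 with every gene.

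Genes detected per cell moved with several members, with a median within-mouse rho of -0.41 for Ptgds, 0.33 for Klk6, 0.28 for Enpp6, 0.22 for Anln, 0.21 for Serpinb1a and -0.21 for Il33. With genes detected as a covariate, Klk6 with Enpp6 gave 0.43, Ptgds with Enpp6 -0.47 and Ptgds with Il33 0.24. In that setting 17 of the 28 pairs were past 0.2 in size. Il33 with Enpp6 and Il33 with Anln fell short of that line, at -0.16 each, and Ptgds with Apod passed it at -0.22. Without the cells that held 3 or more markers of another cell type, Klk6 with Enpp6 gave 0.62 and Ptgds with Enpp6 -0.52.

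The genes most like each of the 4 lead members were taken by rule, as the 5 highest and 5 lowest median rho among the 2512 genes. These come from the 5149 columns used, some from fixed lists (glial genes among them) and most drawn at random, so the order holds within that draw and the other 27096 columns were not ranked. For Klk6 they were Pmp22 (0.43), a protein of compact myelin, S100b (0.40), a calcium-binding protein of glia, Hopx (0.37), Slc25a27 (0.36) and Tspan9 (0.35), and at the low end Opalin (-0.38), a membrane protein of oligodendrocytes, Sept4 (-0.33), Apoe (-0.33), the lipid carrier, Traf5 (-0.29) and Mal (-0.25). Of the 2512 genes, 1.47% were at 0.2 or more with Klk6 and 0.478% at -0.2 or less. For Enpp6 the highest were Selenop (0.50), a selenium carrier, Pmp22 (0.45), Trf (0.42), the iron carrier transferrin, Slco3a1 (0.42) and S100b (0.39), and the lowest Apoe (-0.43), Opalin (-0.36), Mt1 (-0.31), Kirrel3 (-0.28) and Csrp1 (-0.26), with 1.67% of genes at 0.2 or more and 0.518% at -0.2 or less.

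For Ptgds the highest were Apoe (0.54, positive in 22 of 22 mice), Qdpr (0.43), Mt1 (0.39), Sept4 (0.31) and mt-Nd2 (0.31), and among the lowest Rftn1 (-0.35), Trf (-0.35), Mobp (-0.33) and Slco3a1 (-0.33), with 0.557% of genes at 0.2 or more and 1.55% at -0.2 or less. For Il33 relations were weaker. Its highest were Opalin (0.28), Qdpr (0.28), Mal (0.22), Apoe (0.21) and Mt1 (0.18), and its lowest S100b (-0.22), Tspan9 (-0.22), Hopx (-0.20), Aven (-0.19) and Ctnna2 (-0.19), with 0.159% of genes at 0.2 or more and 0.0796% at -0.2 or less. Opalin was also at 0.28 with Ptgds (positive in 18 of 22 mice), and Qdpr was at -0.23 with Klk6 and -0.25 with Enpp6. Apoe, Opalin and Qdpr thus stood with both Ptgds and Il33 and against both Klk6 and Enpp6 by their medians. Apoe with Il33 was uneven between mice, positive in 15 of 22 and negative in 7.

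Marker lists of oligodendrocyte states were set beside these values. The lists, too, were chosen with earlier results of these data known. Of 5 genes that accompany Klk6 in one mature state (Hopx, S100b, Anxa5, Mgst3 and Cd59a), 4 were at 0.2 or more with Klk6 (list median 0.26, all genes 0.02) and 5 with Enpp6 (0.27, all genes 0.03), while 4 were at -0.2 or less with Ptgds (-0.27, all genes -0.04) and 1 with Il33 (-0.16, all genes -0.02). Of 12 genes of newly formed oligodendrocytes, 5 were found in at least 10% of cells, and 0 of the 5 passed 0.2 in either direction with any of the 4 lead members. With Enpp6, itself used as a marker of that stage, they had a median of 0.04. They were Mpzl1 (0.16, positive in 16 of 20 mice), Itpr2 (0.07), Tcf7l2 (0.04), Fyn (-0.03) and Bcas1 (-0.04). The other 7 genes of that list had at least 1 read in 0.208% (Neu4) to 9.77% of cells (Cnksr3), among them Gpr17 in 9.25% and Bmp4 in 0.312%. Genes of the late mature list split, with 3 at 0.2 or more and 2 at -0.2 or less with Enpp6, and the early mature list likewise with 2 and 1. Lists of other cell types gave 0 genes past 0.2 in either direction with these 4 members, over 6 astrocyte, 8 neuron, 1 precursor and 1 microglia gene found in at least 10% of cells, and 0 of 6 leptomeningeal genes were found that often.

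Partner genes of the 2 signalling members were measured in the same cells. Il1rap, a subunit of the Il33 receptor, was at 10 CPM or more in 90.7% of VISp oligodendrocyte-like cells and 7.71% of VISp astrocyte-like cells. Il1rl1, the subunit that binds Il33, was there in 1 of 962 oligodendrocyte-like cells and 0 of 739 astrocyte-like cells, which allows a share of up to 0.406%. Ptgdr and Ptgdr2, receptors of prostaglandin D2, were there in 0 of 962 cells, which allows up to 0.312%, and Ptgs1, the enzyme upstream of Ptgds, in 0.416% of oligodendrocyte-like and 13.5% of astrocyte-like cells.

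The share of cells with Klk6 and Enpp6 differed widely between mice. Over the 22 mice the share at 10 CPM or more was 10 ± 6.27% for Klk6 (SD, n = 22) and 22.8 ± 12.4% for Enpp6 (SD, n = 22), with 2 mice at 0 for each gene. It was 70.2 ± 15.4% for Serpinb1a and 78.1 ± 10.05% for Anln (SD, n = 22). The 3 mice of vector eHGT_410m show the spread within a vector. MouseID-556486 held Enpp6 in 0 of 48 cells, which allows up to 6.25%, while MouseID-617304 held it in 25 of 63 cells (39.7%, exact 95% interval 27.6 to 52.8%) and MouseID-619578 in 9 of 27 (33.3%, 16.5 to 53.96%). The same mice held Klk6 in 0, 10 and 2 cells.

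**Figure D4:**
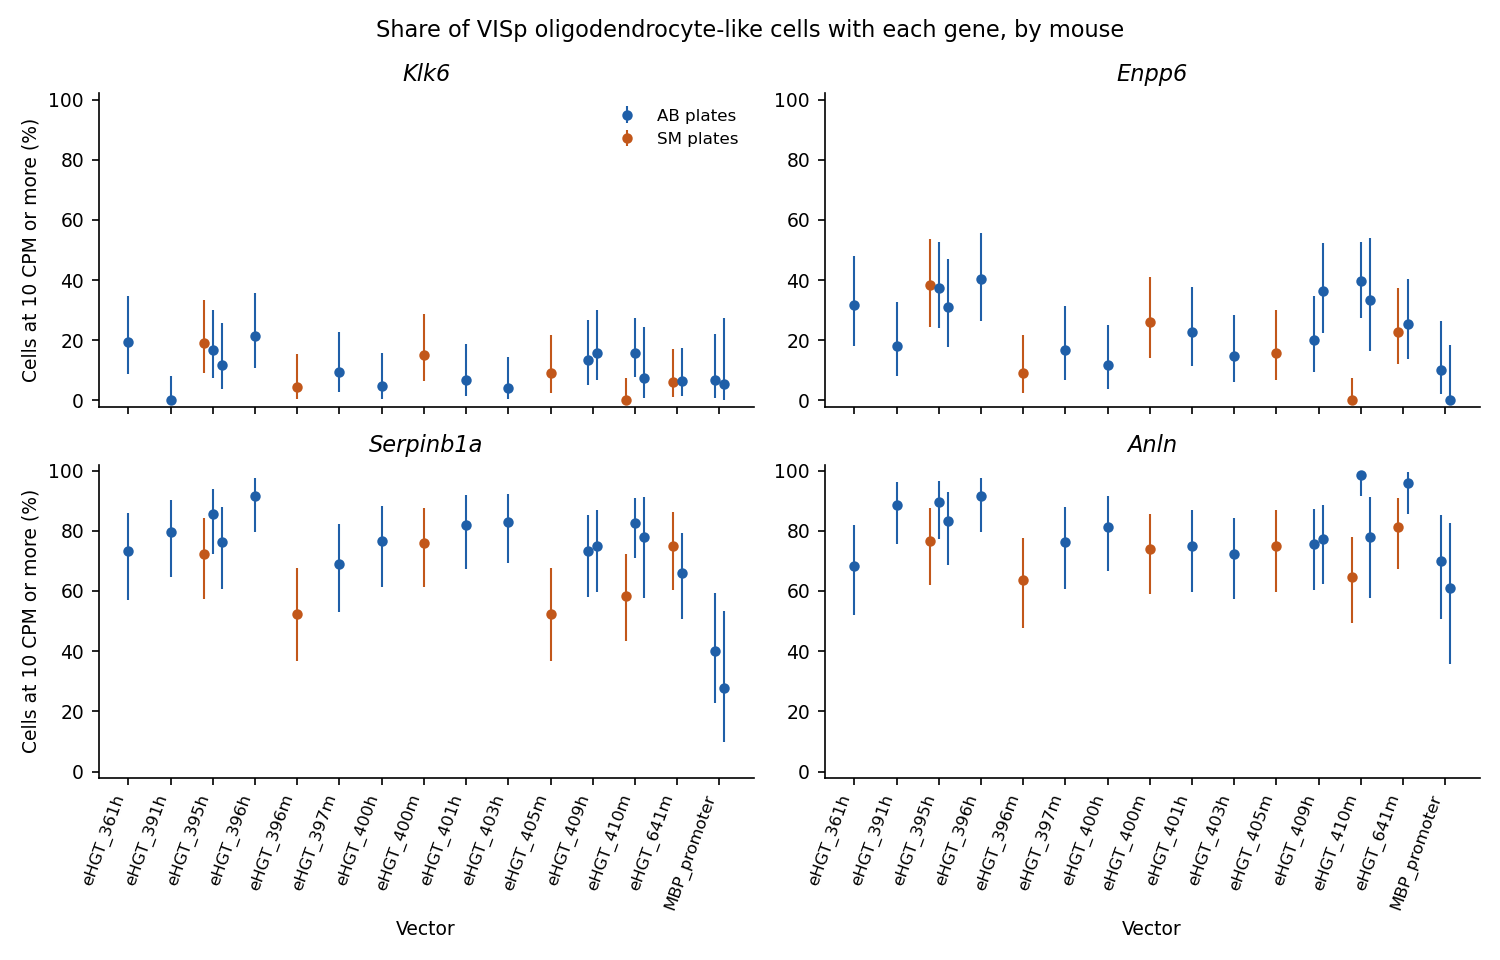
Share of VISp oligodendrocyte-like cells at 10 CPM or more (y axis, percent) for Klk6, Enpp6, Serpinb1a and Anln in each of the 22 mice, grouped by vector (x axis). Points are mice, bars are exact 95% binomial intervals and colour is the prefix of the plate name (AB or SM); both MBP_promoter mice have the 2 lowest shares of Serpinb1a, and 1 of 3 eHGT_410m mice has no cell with Klk6 or Enpp6.

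Vectors were compared over the 12 mice of the 5 vectors with at least 2 such mice, eHGT_395h (3), eHGT_410m (3), eHGT_409h (2), eHGT_641m (2) and MBP_promoter (2), on log2(mean CPM + 1) per mouse with limma and Benjamini-Hochberg adjustment over 3309 genes. The test over all 5 vectors called 1 of 3309 genes (0.0302%), the histone gene Hist1h2bf, named after its value was seen, and 210 genes at an unadjusted p under 0.05. None of the 8 members passed, the nearest being Serpinb1a (limma adjusted p = 0.261) and Il33 (0.328). Without MouseID-556486, the eHGT_410m mouse that lacks Klk6 and Enpp6, Serpinb1a and Enpp6 passed (limma adjusted p = 0.0314 each).

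MBP_promoter, which drives SYFP2 from the promoter of the myelin gene Mbp, differed from the mean of the other 4 vectors in 33 of 3309 genes (0.997%), and 2 of the 8 members were among them. Serpinb1a was at 7.60 and 6.72 on the log2(mean CPM + 1) scale in the 2 MBP_promoter mice and at 8.07 to 9.69 in the other 10. Serpinb1a was lower by -1.68 (SE 0.31, limma adjusted p = 0.0175). It was at 10 CPM or more in 12 of 30 and 5 of 18 cells, or 40% and 27.8%, against 58.3 to 85.4% in the other 10 mice. Il33 was at 11.97 and 11.94 against 10.92 to 11.46, and was higher by 0.76 (SE 0.16, limma adjusted p = 0.0368). The median difference of all 3309 genes was -0.13.

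Enpp6 was in 3 of 30 and 0 of 18 cells of the MBP_promoter mice, and its level differed by -4.38 (SE 1.30, limma adjusted p = 0.147). On plates with the AB prefix alone, which hold both MBP_promoter mice, its difference was -5.16 (limma adjusted p = 0.00534), and without MouseID-556486 it was -4.98 (limma adjusted p = 0.00192). Klk6 differed by -2.79 (SE 1.18, limma adjusted p = 0.332), Anln by -0.82 (0.332), Apod by -0.36 (0.550), Car2 by -0.29 (0.557) and Ptgds by 0.38 (0.602). The call of Serpinb1a was lost without MouseID-651227 (-1.24, limma adjusted p = 0.355), and that of Il33 without either MBP_promoter mouse (0.74 and 0.78, limma adjusted p = 0.0991 and 0.243). The call of Il33 was also lost without MouseID-562430, MouseID-617304, MouseID-617305 or MouseID-617307 of the other vectors (limma adjusted p = 0.0751, 0.0594, 0.0690 and 0.0700), on AB plates (0.73, 0.0780) and without cells holding markers of other types (0.63, 0.210). The 12 astrocyte markers summed to 582.4 and 414.3 CPM in the MBP_promoter mice and to 220 to 782 CPM in the other 10, and the oligodendrocyte markers to 76097 and 74728 CPM against 68592 to 90151 CPM; their part in the result was not tested.

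Il33 was nearly absent from the astrocyte-like cells of CBX. Its mean level per mouse was 313.4 ± 69.5 CPM in VISp (SD, n = 19, range 132.2 to 414.3 CPM) and 388.5 ± 135.4 CPM in MB/HB (SD, n = 4). The 4 MB/HB mice were at 304.6 and 422.2 CPM (MGT_E160m) and at 262.7 and 564.5 CPM (eHGT_381h), so 2 of them lay within the VISp range and 2 above it. The 2 CBX mice were at 2.53 and 0.876 CPM, far under every mouse of the other tissues. Il33 was at 10 CPM or more in 3 of 81 CBX cells (3.70%, exact 95% interval 0.770 to 10.4%), against 66.98% of 739 VISp cells and 68.7% of MB/HB cells, and its highest value in a CBX cell was 64.2 CPM.

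On the log2(mean CPM + 1) scale Il33 was lower in CBX than in VISp by -6.89 (SE 0.29, limma adjusted p = 4.6e-18) and than in MB/HB by -7.18 (SE 0.34, limma adjusted p = 1.5e-16), while MB/HB and VISp differed by 0.29 (SE 0.22, limma adjusted p = 0.458). Of 3936 genes tested, 12.3% were called between CBX and VISp, and likewise 12.3% between MB/HB and VISp, and 10.8% between CBX and MB/HB; averaging log2 values over cells moved the share of higher calls from 48.97% to 84.8% for CBX against VISp and from 46.8% to 85.02% for CBX against MB/HB. All CBX cells came from 1 vector and all MB/HB cells from 2, and none of these was used in another tissue. Tissue and vector therefore cannot be told apart in any of the tissue comparisons. Leaving out either CBX mouse gave -7.35 and -6.43 against VISp, with the lone mouse assumed to vary like the others. In VISp, Il33 was at 2680 ± 618.7 CPM in oligodendrocyte-like cells (SD, n = 22), with a lowest mouse of 1941 CPM against a highest of 414.3 CPM for astrocyte-like cells, a difference between classes that was not tested.

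**Figure D5:**
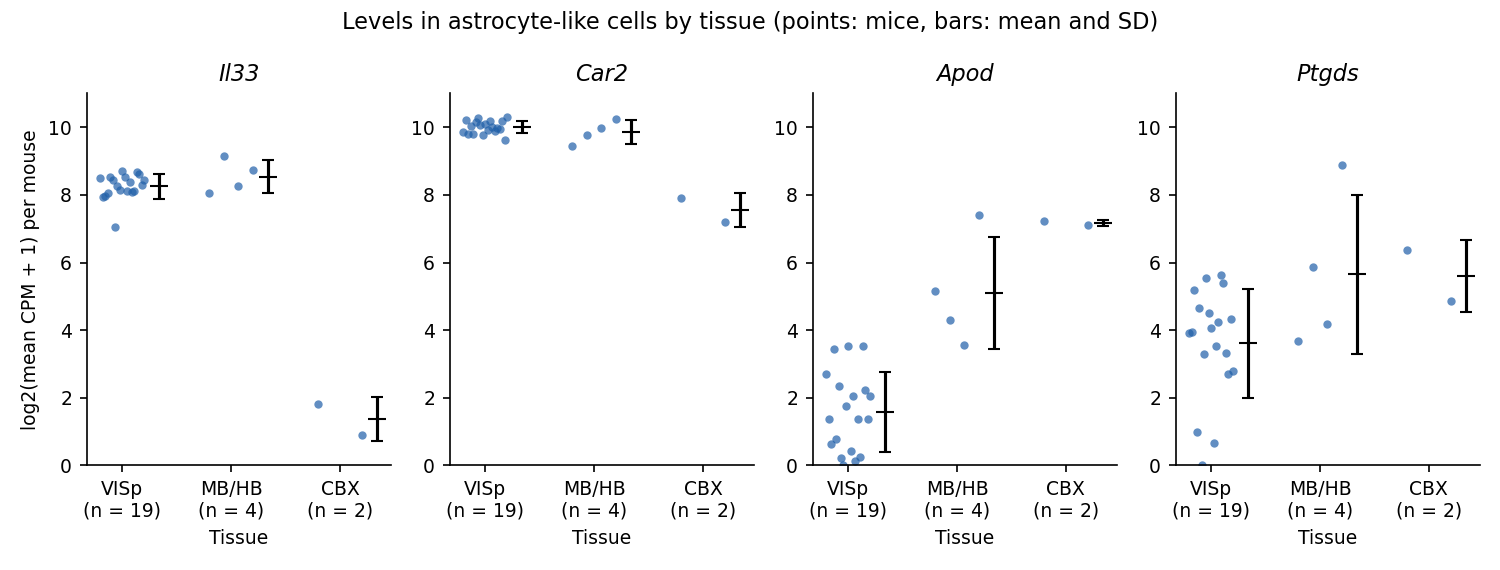
Levels of Il33, Car2, Apod and Ptgds in astrocyte-like cells by tissue, as log2(mean CPM + 1) per mouse. Points are mice, the black mark and bar beside them are mean and SD, and n is the number of mice; Il33 and Car2 are lower in both CBX mice than in every other mouse, and Apod is above the VISp range in both.

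Car2 was also lower in CBX, without the near-complete loss seen for Il33. The 2 CBX mice were at 239.2 and 145.97 CPM, the 4 MB/HB mice at 691.7 to 1216 CPM and the 19 VISp mice at 792.7 to 1254 CPM. CBX differed by -2.45 from VISp (SE 0.18, limma adjusted p = 6.6e-12) and by -2.30 from MB/HB (SE 0.21, limma adjusted p = 1.6e-09), and MB/HB from VISp by -0.15 (SE 0.14, limma adjusted p = 0.558). The share of cells at 10 CPM or more was 74.1% in CBX, 89.8% in MB/HB and 97.02% in VISp.

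Apod was higher in both other tissues than in VISp, but for MB/HB this did not pass once the plate was a covariate. It was at 148.1 and 136.7 CPM in the CBX mice, at 10.8 and 167.1 CPM (MGT_E160m) and at 34.7 and 18.7 CPM (eHGT_381h) in the MB/HB mice, and at 0 to 10.5 CPM with a median of 1.61 CPM in VISp. The differences from VISp were 5.58 for CBX (SE 0.94, limma adjusted p = 4.4e-05) and 3.52 for MB/HB (SE 0.69, limma adjusted p = 0.000437), and CBX and MB/HB differed by 2.06 (SE 1.09, limma adjusted p = 0.279). With the plate as a covariate, an alternative chosen after seeing the data, the difference from VISp was 5.66 for CBX (limma adjusted p = 0.00219) and 3.14 for MB/HB, which no longer passed (limma adjusted p = 0.0937). Apod was at 10 CPM or more in 51.9% of CBX cells, 17.01% of MB/HB cells and 3.11% of VISp cells.

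Markers of oligodendrocytes moved the same way as Apod. The 12 oligodendrocyte markers summed to 2224 and 1935 CPM in the astrocyte-like cells of the CBX mice, to 839 to 6262 CPM in MB/HB and to 171.1 to 1311 CPM in VISp, with 4 to 5, 5 to 11 and 1 to 5 of the 12 at 10 CPM or more. Without cells that held 3 or more markers of another cell type, Apod differed from VISp by 5.18 for CBX (limma adjusted p = 0.000218) and by 2.52 for MB/HB (limma adjusted p = 0.0383). MouseID-651229 was the MB/HB mouse with the highest Apod and the highest oligodendrocyte markers. Without it, MB/HB differed by 2.75 (limma adjusted p = 0.0109). Cells with fewer such markers stayed in, and the part of oligodendrocyte RNA in the Apod values was not tested.

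No tissue difference of Ptgds passed the test. It was at 81.5 and 27.9 CPM in CBX, at 17.1, 473.9, 11.7 and 57.1 CPM in MB/HB and at 0 to 48.4 CPM in VISp with a median of 14.2 CPM, and the groups overlapped. The differences from VISp were 1.99 for CBX (SE 1.15, limma adjusted p = 0.331) and 2.04 for MB/HB (SE 0.85, limma adjusted p = 0.120). The value of 473.9 CPM came from MouseID-651229, and without it MB/HB differed from VISp by 0.96 (limma adjusted p = 0.609). Ptgds was at 10 CPM or more in 14.8% of CBX, 17.7% of MB/HB and 9.61% of VISp astrocyte-like cells.

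Of the remaining members, Serpinb1a was at 12.1 and 20.3 CPM in CBX, at 0 to 12.6 CPM in MB/HB and at 0 to 62.02 CPM in VISp, and passed in no tissue comparison (limma adjusted p = 0.0981 for MB/HB against VISp, difference -2.10, SE 0.83). Anln and Enpp6 also passed in none, and Klk6 was below the filter of 1 CPM in 2 mice and was not tested. Of the 7 members tested, then, 3 were called between CBX and VISp (Il33, Car2, Apod), where 12.3% of all genes tested were called. Between MB/HB and VISp it was 1 of 7 (Apod), close to the 12.3% of all genes there, and between CBX and MB/HB it was 2 of 7 (Il33, Car2), against 10.8% of all genes. The MB/HB libraries also held 12 oligodendrocyte-like cells of 4 mice, too few per mouse for a comparison, of which 6 had Klk6 and 5 had Enpp6 at 10 CPM or more.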

How the data were processed

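The deposited expression table holds 1 row per cell in CPM, and each cell is 1 library of 1 mouse. Reads were aligned with STAR to mm10, per the submitters' processing notes. The 8 genes were read as deposited CPM; the authors' other columns are on the same scale and were recorded as a score only because they were not checked column by column. All 9484843 positive values of the table were whole reads of the cell within 0.001 (100%), and no count model was run on them. Of 32245 gene columns 5149 were used, 118 from fixed lists and 5031 drawn at random by name, which carried a median of 34.8% of reads; the other 27096 entered only depth and the number of genes detected. Depth was 57873 to 1455022 reads per cell (median 434102) and a median of 4435.5 genes was detected.

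Cells were clustered on 2000 variable genes without the 8 members (30 principal components, Leiden resolution 1; Python 3.11.15, scikit-learn 1.9.0, igraph 0.11.9, leidenalg 0.10.2). All 10 clusters were named from marker lists, a class called in each cell matched in 2023 of 2040 cells, and no doublet caller was run. At resolution 2, a cluster of 55 cells (52 of VISp) with all 12 oligodendrocyte markers stayed unnamed. More than 50% of the astrocyte markers were also detected in most of its cells. Mice with at least 10 cells of a class were compared on log2(mean CPM + 1) with limma 3.58.1 in R 4.3.3, Benjamini-Hochberg adjusted at 0.05, over genes at 1 CPM or more in 2 mice (3936 in astrocyte-like and 3309 in oligodendrocyte-like cells), after tests on simulated data. Exact (Clopper-Pearson) 95% intervals and limits of 3 counts for a 0 cover counting error only. Genes named beside a member were the 5 highest and 5 lowest by median rho, of which 1 is not reported here. Alternatives changed the pseudocount, filter, class, cells, plates, depth and mice. The members, lists and rules were chosen with earlier results of these data known.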

Additional observations from a re-analysis of the deposited data

Results flagged for a closer look

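Among the 8 members in the astrocyte-like cells of the 4 MB/HB mice, MouseID-651229 of vector MGT_E160m stood far above the other 3 for Anln, Enpp6 and Klk6. The gap to the nearest mouse as a part of the whole range was 0.847 for Anln, 1 for Enpp6 and 1 for Klk6, above Dixon's critical value for 4 mice. For Enpp6 and Klk6 the other 3 mice were at 0, so that any value above 0 gives a ratio of 1 and the ratio carries no weight. For Anln, chance flags about 1 in 20 groups of values above 0, and 8 groups were looked at. Anln was at 2.94 on the log2(mean CPM + 1) scale in that mouse and at 1.38, 1.58 and 1.62 in the others. Enpp6 was at 4.06 and Klk6 at 3.41 against 0 in the other 3 mice, from 3 and 2 of its 36 cells. The same mouse had the highest summed oligodendrocyte markers (6262 CPM, 11 of 12 at 10 CPM or more), whose part in these values was not tested.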

How the results depend on the processing

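Of the members' values in the fits under other settings, 11 turned sign, 6 newly passed, 6 no longer passed and the others kept direction and side of the threshold; with 1 mouse left out the same numbers were 11, 6 and 7. With the plate as covariate, chosen after seeing the data, 7.16% of genes were called between CBX and MB/HB, and the fit of vectors had no residual degree of freedom (12 mice, 5 vectors, 8 plates). With log2 values averaged over cells, 26.98% of genes were called between CBX and VISp and 28.8% between CBX and MB/HB. Among vectors 0.0684% of genes were called with no filter and 0.272% with averaged log2 values, and 0% with a pseudocount of 0.1, the plate prefix as covariate, AB plates alone, at least 20 cells per mouse, or without cells with RNA of other types. For MBP_promoter the share was 0.0456% with no filter, 0.423% with averaged log2 values (13 higher and 1 lower, against 11 and 22) and 0.597% on AB plates. Leaving out 1 mouse gave 6.41 to 13.4% for CBX against VISp and 4.70 to 11.4% for CBX against MB/HB (both lowest without MouseID-651221), 0 to 0.397% among vectors and 0.152 to 3.49% for MBP_promoter (lowest without MouseID-651227, highest without MouseID-638254). Signs turned only among uncalled values. These were Il33 in MB/HB against VISp without cells with RNA of other types (-0.10), Enpp6 without 1 mouse (-0.41 to 0.95 for MB/HB against VISp, and -1.27 to 0.085 for CBX against MB/HB, both turned without MouseID-651229), Anln in MB/HB against VISp (0.039 with a pseudocount of 0.1, 0.040 with the plate prefix as covariate, 0.040 on AB plates, 0.26 with averaged log2 values, -0.41 to 0.15 without 1 mouse), Serpinb1a in CBX against VISp (-0.071 with the plate), Enpp6 with the plate (-0.56 for MB/HB against VISp, 0.36 for CBX against MB/HB) and Ptgds in CBX against MB/HB (1.38 with the plate, 0.0060 with summed reads, 0.81 without cells with RNA of other types, -0.80 to 1.04 without 1 mouse). The cause was not tested. Between 17 and 20 of 28 pairs passed 0.2 in size under other settings, of which cluster resolution 2 was also chosen after seeing the data. Pearson's r moved Ptgds with Il33 to 0.52, Ptgds with Klk6 to -0.67 and Il33 with Klk6 to -0.60. The minimum of 20 cells could not be fitted for MBP_promoter, where it leaves 1 mouse. No paired analysis was possible because each mouse number belongs to 1 group; plates that hold several groups entered as the covariate above.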
